A study of Mus musculus with 16 samples.

Results

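The heat shock and chaperonin genes measured here were all genes whose symbol begins with Hspa, Hspb, Hspd, Hspe, Hsph or Hsp90, or with Dnaja, Dnajb or Dnajc and a digit, together with Cct2 to Cct8 and Tcp1. A probe set counted only where its annotation gave exactly 1 symbol, and of several probe sets for a gene the brightest over all arrays was used. The rule found 82 members among 19938 genes, from 105 probe sets. The rule reads symbols and not levels, although it was set with earlier results of these data known. The members were 10 genes of the cytosolic chaperonin CCT, 2 of the HSP90 family, 2 of the mitochondrial chaperonin, 12 HSP70 genes, 1 HSP110 gene, 8 small heat shock genes, 2 HSP70 binding partners, and 4, 13 and 28 genes for J-domain proteins of classes A, B and C. Families follow the symbols, so Hspa4 and the HSP110-like Hspa4l are counted among the HSP70 genes. Hspb11 matches by symbol but is known as a protein of intraflagellar transport.

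Expression arrays were run on RNA of regulatory T cells (Treg), which restrain other T cells, sorted out of pooled lymph nodes of C57BL/6 female mice 8 to 12 weeks old. The cells were sorted by surface CD103, an integrin chain encoded by Itgae, and by ICOS, a costimulatory receptor, into CD103pos ICOSpos, CD103neg ICOSpos, CD103pos ICOSneg and CD103neg ICOSneg subsets. Each subset was profiled after activation and fresh, directly after the sort, with 2 arrays in each of the 8 groups, and the labels call these biological replicates. For activation, 200000 Treg of a subset spent 3 days with 1000000 Ly5.1 congenic naive CD4 cells, 2000000 irradiated Rag2-/- splenocytes and soluble anti-CD3 at 0.5 ug/ml, and were then sorted again as Ly5.1neg CD4pos CD25pos cells. No allele or transgene is labelled in the Treg donors beyond wild type C57BL/6. The series describes 2 independent experiments, and the labels do not say which array belongs to which. There was no culture without anti-CD3, so time in culture, the other cells and T cell receptor stimulation cannot be told apart, and the activated cells went through a further sort. In bulk samples such as these, fewer cells of a type and less RNA per cell cannot be told apart.

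Chaperones hold unfolded proteins and help them reach their folded form. HSP70 proteins bind short exposed stretches of a client, J-domain proteins deliver clients and start ATP hydrolysis by HSP70, nucleotide exchange factors such as the HSP110 proteins reset the cycle, and HSP90 acts late on kinases, receptors and other signalling proteins. The ring-shaped CCT complex folds actin and tubulin in the cytosol, and Hspd1 with its lid Hspe1 does similar work in mitochondria. Many of these genes are induced by the transcription factor Hsf1 when proteins unfold in the cytosol, and those of the endoplasmic reticulum (ER) by the unfolded protein response, which is also used when lymphocytes grow and begin to secrete.

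The promoters of 4 members whose levels are described below are shown because they carry the motifs of these 2 responses. They are RefSeq windows on GRCm38.p6 that run from 250 bases before to 50 bases after the start of the gene, printed 5′ to 3′ on the strand of the gene, and capitals mark each match. In Hspe1 (chr1:55087898-55088197, + strand) the capitals are 2 overlapping heat shock elements. In Hsph1 (chr5:149636266-149636565, - strand) they are 1 heat shock element. In Hspa5 (chr2:34771840-34772139, + strand) they are 1 ER stress element, and in Hsp90b1 (chr10:86705395-86705694, - strand) they are 2 ER stress elements, 1 on each strand.
Hspe1: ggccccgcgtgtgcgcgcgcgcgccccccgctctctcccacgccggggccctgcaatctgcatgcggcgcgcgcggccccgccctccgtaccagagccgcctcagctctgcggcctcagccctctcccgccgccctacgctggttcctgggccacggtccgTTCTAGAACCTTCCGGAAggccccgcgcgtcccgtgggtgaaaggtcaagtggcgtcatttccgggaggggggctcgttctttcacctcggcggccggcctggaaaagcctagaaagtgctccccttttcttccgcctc
Hsph1: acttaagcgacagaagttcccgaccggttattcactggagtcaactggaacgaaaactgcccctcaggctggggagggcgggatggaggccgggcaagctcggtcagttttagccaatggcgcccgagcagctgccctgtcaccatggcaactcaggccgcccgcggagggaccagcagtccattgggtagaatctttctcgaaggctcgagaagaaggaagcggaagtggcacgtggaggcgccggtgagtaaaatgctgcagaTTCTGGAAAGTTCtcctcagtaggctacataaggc
Hspa5: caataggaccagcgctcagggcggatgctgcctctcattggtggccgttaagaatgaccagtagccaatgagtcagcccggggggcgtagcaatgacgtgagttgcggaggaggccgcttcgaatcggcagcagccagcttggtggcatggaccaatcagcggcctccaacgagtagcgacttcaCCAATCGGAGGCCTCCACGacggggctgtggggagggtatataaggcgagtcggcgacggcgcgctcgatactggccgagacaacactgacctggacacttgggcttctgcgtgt
Hsp90b1: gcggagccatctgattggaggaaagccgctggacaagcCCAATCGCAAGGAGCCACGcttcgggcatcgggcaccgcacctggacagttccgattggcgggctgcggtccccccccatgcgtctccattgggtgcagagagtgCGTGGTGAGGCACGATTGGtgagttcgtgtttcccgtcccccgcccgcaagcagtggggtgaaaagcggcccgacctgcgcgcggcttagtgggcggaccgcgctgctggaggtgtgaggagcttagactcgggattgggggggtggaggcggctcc
The Hspd1 window (chr1:55087883-55088182, - strand) covers nearly the same bases as that of Hspe1, read on the other strand, so these genes share the same elements.

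The heat shock element was searched as 3 units, alternately GAA and TTC and starting with either, with any 2 bases between units. The ER stress element was searched as CCAAT and CCACG with any 9 bases between them. Both strands were searched, and overlapping matches were each counted. Windows were at hand for 68 members, and a gene counted where any of its windows held a match. A heat shock element was found in 4 of the 68 (5.88%), namely Hspd1, Hspe1, Hsph1 and Dnajb6, against 0.662% of all 27025 genes with a window. An ER stress element was found in 3 of the 68 (4.41%), namely Hspa5, Hsp90b1 and Dnajc3, against 0.137% of all such genes. Windows for 9 CCT genes held neither motif as spelled here. A match describes the letters of the window and not a bound site.

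Levels are RMA log2 intensities as deposited, in which 1 unit is a doubling. A level is compared between arrays for the same probe set and never between probe sets. The median of all probe sets on an array lay between 6.26 and 6.48. Of the 82 members, 59 were above their array's median on all 16 arrays, 14 on no array and 9 on some. Over the 16 arrays, the median member spanned 0.9 units, 33 members spanned more than 1 unit and 16 spanned less than 0.5. Cct6b and Cct8l1 were dim throughout, at means of 4.90 and 5.10, so the CCT results below concern the 8 remaining subunits, Tcp1, Cct2, Cct3, Cct4, Cct5, Cct6a, Cct7 and Cct8. Hsp90ab1 and Hspa1b were not analysed here. Hspa1a and Hspa1b are near-identical, so the Hspa1a values may hold signal of both.

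The array of activated CD103neg ICOSpos replicate 2 stood apart from the rest. Foxp3, the transcription factor that defines Treg, was at 8.53 on it, against 12.64 on the other array of its group and 11.69 to 12.84 on the other 15 arrays. Between it and the other array of its group 685 genes differed by more than 2-fold, against at most 413 in any other pair. Of 20 Treg core genes 18 were below all 7 other activated arrays on it, against 3118 of all 19938 genes. Above them on it were 10 of 14 naive T cell genes, against 2793 of all genes. Itgae was at 6.30 on it, against 10 on its partner, and Icos was at 11.25, against 12.88. Counts of members called between groups that hold this array are therefore given with and without it. On the other activated arrays the sort genes followed the labels less closely than on the fresh arrays. Itgae was at 9.94 and 9.87 on activated CD103pos ICOSneg arrays and at 10 on the remaining activated CD103neg ICOSpos array, and Icos was at 12.87 to 12.91 on the other 3 activated ICOSpos arrays and at 11.63 to 12.12 on activated ICOSneg arrays. On fresh arrays Icos was at 12.61 to 13.31 in ICOSpos cells and at 10.40 to 11.47 in ICOSneg cells.

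The first question was which chaperone genes differed between activated and fresh cells over the 4 subsets. Differences are activated minus fresh, tested with limma on the 16 arrays with 8 group means, two-sided, with Benjamini-Hochberg adjustment over all 19938 genes and called at an adjusted p below 0.05. Of the 82 members 15 rose and 14 fell (35.4%), against 31.2% of all genes, so the share of members called was near that of the genome. These sets differ in level. Of the members 78% were not dim, that is had a mean above the median of all values, against 53.5% of all genes. With dim genes left out 28 of 64 members were called, against 5507 of 10673 genes, a smaller share of the members. Of all genes 2870 rose and 3344 fell (14.4% and 16.8%). The median difference was 0.05 over the members and -0.00 over all genes. By family, both HSP90 members, 3 of 10 CCT genes and 1 of 2 mitochondrial chaperonin genes rose and none of these fell. Of 12 HSP70 genes 4 rose and 1 fell, and of 8 small heat shock genes 1 rose and 1 fell. Of 28 class C J-domain genes 4 rose and 7 fell. In class B 4 of 13 fell, as did 1 of 2 HSP70 binding partners, and none rose. Without the array that stood apart 15 members rose and 13 fell, against 30.7% of all genes called, 28 of them shared with the calls on all arrays, and Dnajc27 was lost (adjusted p = 0.064). Quantile normalization of the deposited values moved the split to 24 higher and 12 lower among members and 4629 higher and 3005 lower among all genes.

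**Figure D1:**
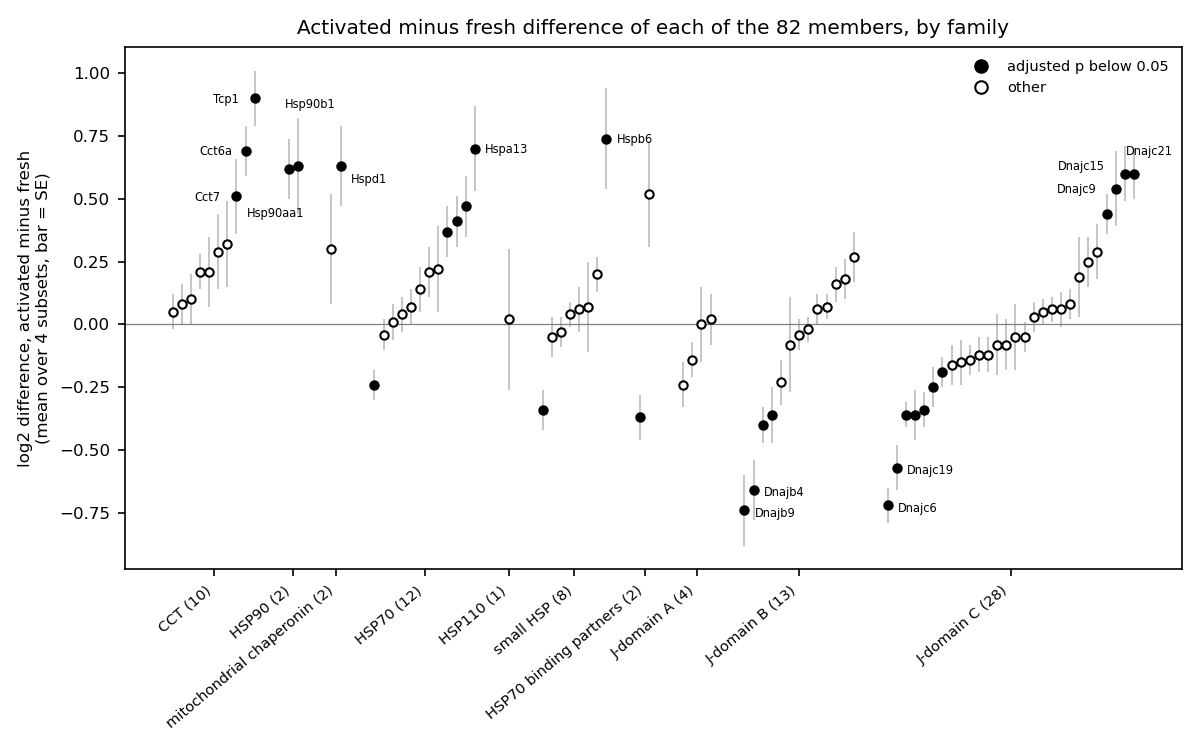
Activated minus fresh difference of each member in log2 units (vertical axis, bar = SE), with members grouped by family along the horizontal axis and filled points for those with a limma adjusted p below 0.05. Both HSP90 members lie at 0.62 to 0.63, all 8 detected CCT subunits lie above 0, and the class B and class C J-domain genes lie on both sides of 0.

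Among the CCT subunits, Tcp1, the alpha subunit, had the largest difference. In activated cells Tcp1 was at 11.44 and 11.00 in CD103pos ICOSpos, 10.84 and 10.76 in CD103neg ICOSpos, 11.74 and 11.59 in CD103pos ICOSneg, and 11.49 and 11.48 in CD103neg ICOSneg arrays. In fresh cells it was at 10.02 and 10.51, 10.73 and 10.99, 9.99 and 10.45, and 10.05 and 10.38 in the same subsets. Activated arrays lay above fresh arrays of the same subset except in CD103neg ICOSpos, where the values overlapped. Tcp1 averaged 11.29 in activated and 10.39 in fresh cells, a difference of 0.90 ± 0.11 (SE, n = 8 arrays each; limma adjusted p = 5.77e-05), or 1.87-fold. Cct6a, the zeta subunit, ranged over 10.61 to 11.81 with a median of 11.44 in activated cells and over 10.30 to 11.18 with a median of 10.54 in fresh cells, a difference of 0.69 ± 0.10 (limma adjusted p = 0.000267). Cct7, the eta subunit, rose by 0.51 ± 0.15 (limma adjusted p = 0.0204), with 10.46 to 11.21 in activated and 9.83 to 10.76 in fresh cells. The other 5 subunits had differences of 0.21 for Cct2, 0.32 for Cct3, 0.10 for Cct4, 0.21 for Cct5 and 0.29 for Cct8 and did not pass, Cct2 narrowly (adjusted p = 0.0521). All 8 differences were positive, with a median of 0.30, and stayed so after quantile normalization (median 0.29).

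**Figure D2:**
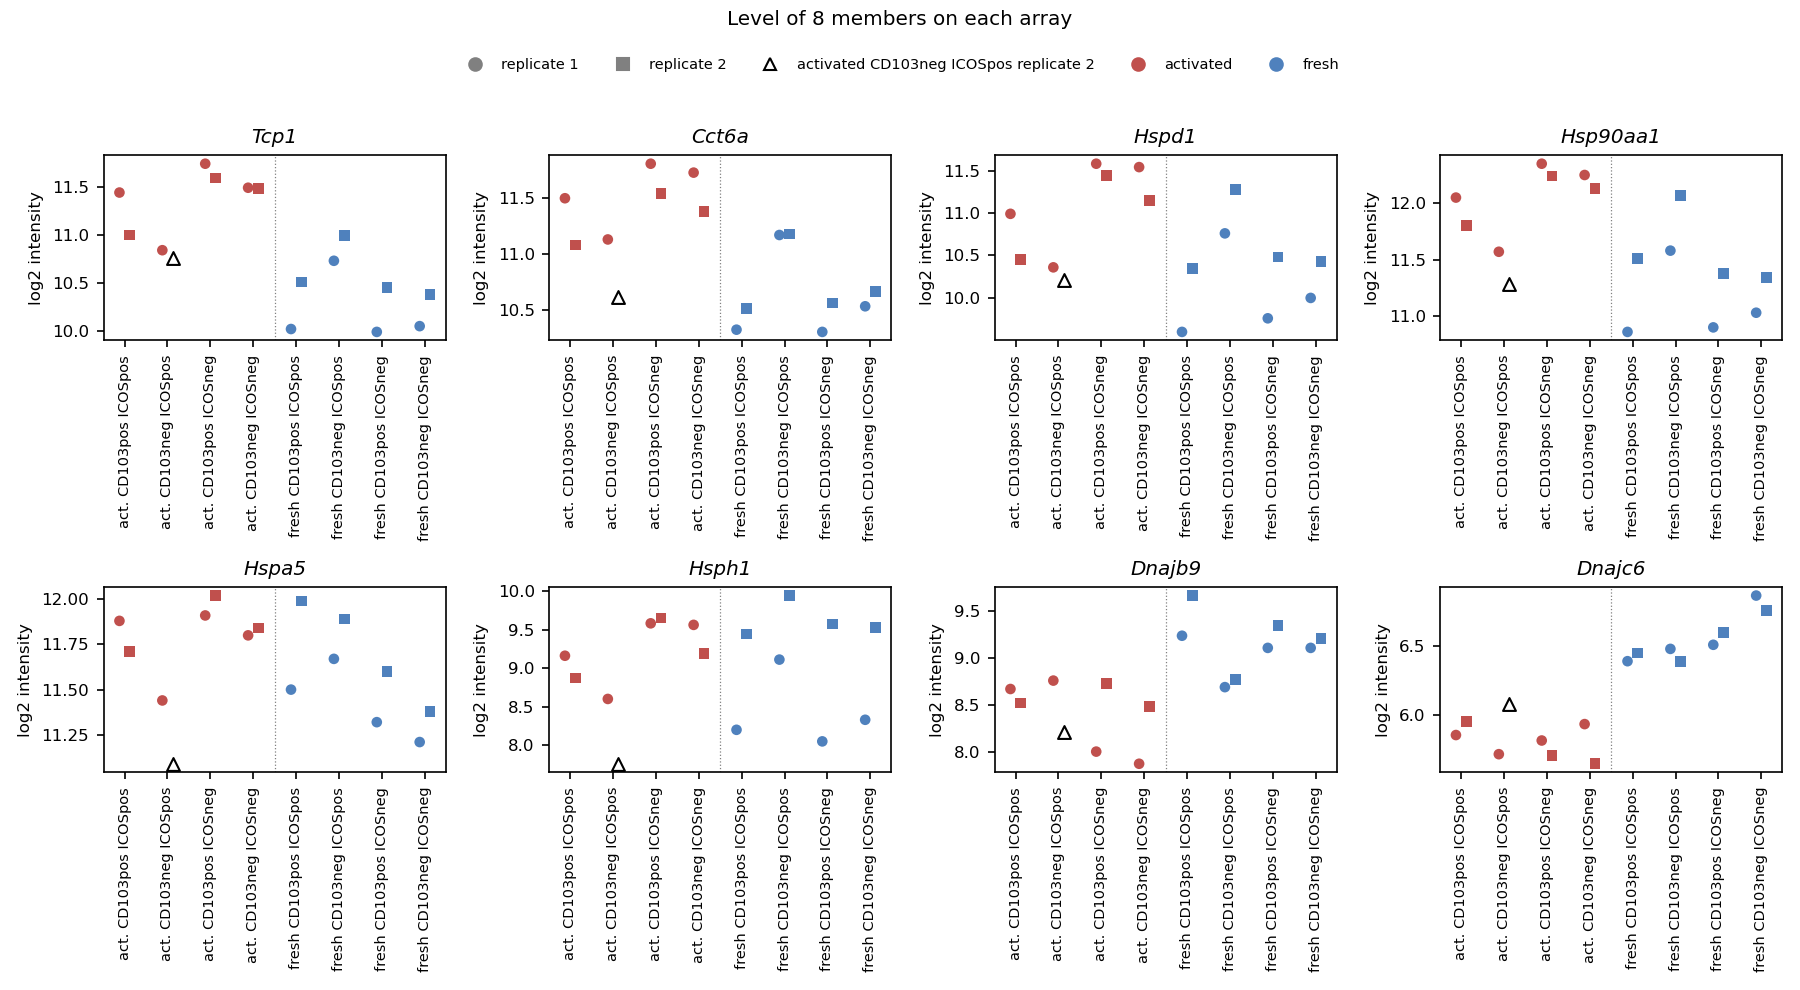
Level in log2 intensity (vertical axis) of 8 members on every array, activated groups left of fresh groups, 1 point per array with the array that stood apart marked. Tcp1 was highest on activated ICOSneg arrays, and every activated Dnajc6 value lay below every fresh one.

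Both HSP90 members rose. Hsp90aa1, the stress-inducible cytosolic HSP90, ranged over 11.28 to 12.35 with a median of 12.09 in activated cells and over 10.86 to 12.07 with a median of 11.36 in fresh cells, a difference of 0.62 ± 0.12 (limma adjusted p = 0.00202). Its other probe sets gave 0.61 and 0.79. Hsp90b1, the HSP90 of the ER, ranged over 11.00 to 12.12 in activated and 10.22 to 11.88 in fresh cells, a difference of 0.63 ± 0.19 (limma adjusted p = 0.0242). The Hsp90b1 call held in 8 of 16 fits that each left out 1 array. The ranges of both genes overlapped between the states.

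In mitochondria, Hspd1, the chaperonin barrel, was at 10.99 and 10.45 in activated CD103pos ICOSpos, 10.36 and 10.21 in CD103neg ICOSpos, 11.58 and 11.44 in CD103pos ICOSneg and 11.54 and 11.15 in CD103neg ICOSneg arrays. In fresh cells Hspd1 was at 9.60 and 10.35, 10.76 and 11.28, 9.76 and 10.48, and 10 and 10.43 in the same subsets. Activated arrays were the higher ones in 3 subsets and the lower ones in CD103neg ICOSpos. Hspd1 rose by 0.63 ± 0.16 (limma adjusted p = 0.0089), and its other probe set gave 0.78. Hspe1, its lid, averaged 0.30 more in activated than in fresh cells and did not pass (adjusted p = 0.38). Hspa9, the mitochondrial HSP70, rose by 0.47 ± 0.12 (adjusted p = 0.013), and Dnajc15, a J-domain protein of the inner membrane, rose by 0.60 ± 0.11 (adjusted p = 0.00118). Dnajc19, part of the motor that pulls proteins into mitochondria, went the other way. Dnajc19 was at 7.90 to 8.41 in activated cells, below all fresh values of 8.53 to 9.02, and fell by 0.57 on the log2 scale (SE 0.09, limma adjusted p = 0.000616). Of 8 mitochondrial members 3 rose and 1 fell, against 14.4% of all genes higher and 16.8% lower. In a list of 9 other mitochondrial protease and import genes 2 rose, Lonp1, a matrix protease, by 1.03 and Timm23, the import channel, by 0.60.

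In the ER, 2 of 10 members rose and 2 fell, against 14.4% of all genes higher and 16.8% lower. Hspa13, an HSP70-like protein of microsomes, ranged over 7.94 to 9.37 in activated and 7.22 to 8.87 in fresh cells and rose by 0.70 ± 0.17 (limma adjusted p = 0.00669), and Hsp90b1 rose as given above. Hspa5, known as BiP, the main HSP70 of the ER, was at 11.09 to 12.02 in activated and 11.21 to 11.99 in fresh cells, a difference of 0.14 that did not pass (adjusted p = 0.283). Dnajb9, an ER J-domain partner of Hspa5, was at 7.87 to 8.76 in activated and 8.69 to 9.67 in fresh cells and fell by 0.74 on the log2 scale (SE 0.14, adjusted p = 0.00141). Dnajb14, an ER-anchored J-domain protein, fell by 0.36 (adjusted p = 0.0279), a call that held in 9 of 16 fits leaving out 1 array. Other genes of the ER were read beside these members. Of 10 ER folding enzymes and partners 8 rose and none fell, with a median of 0.48, against -0.00 over all genes. Among them were Sdf2l1, an ER cofactor, by 1.37 (adjusted p = 5.48e-07), Manf by 0.89, and P4hb, a disulfide isomerase, by 0.83. Of 9 regulators of the unfolded protein response 5 rose and 2 fell. Its sensors Ern1 and Atf6 rose by 1.08 and 0.92, its transcription factor Xbp1 rose by 0.68, and Herpud1, a component of ER-associated degradation, fell by 0.48.

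Of the cytosolic HSP70 genes, Hspa8, the constitutive form, lay between 12.81 and 13.21 on all arrays, with a difference of 0.04 (adjusted p = 0.744). Hspa1a, the strongly heat-inducible form, was at 6.95 to 7.29 on all arrays, with a difference of -0.04 (adjusted p = 0.671). Hspa4, an HSP70-like exchange factor, rose by 0.37 ± 0.10 (limma adjusted p = 0.0176), and Hspa2, best known from testis, by 0.41 ± 0.10 (adjusted p = 0.00671). Hspa12a, a distant HSP70 relative, fell by 0.24 (adjusted p = 0.00697). Hsph1, the only member whose symbol begins with Hsph, was at 7.76 to 9.65 in activated and 8.05 to 9.94 in fresh cells. Its difference of 0.02 had an SE of 0.28 (limma adjusted p = 0.967). The small heat shock gene Hspb6 rose by 0.74 ± 0.20 (limma adjusted p = 0.0167), with 7.45 to 8.40 in activated and 6.65 to 7.54 in fresh cells. Hspb1, known as Hsp25 or Hsp27, was dim and fell by 0.34 (SE 0.08, adjusted p = 0.00487), with 5.72 to 6.54 in activated and 5.87 to 6.94 in fresh cells. Among 10 members known as heat shock factor targets 2 rose, Hsp90aa1 and Hspd1, and 1 fell, Hspb1. These 3 calls (30%) compare with 31.2% of all genes. Of the heat shock factor genes Hsf2, Hsf3, Hsf4 and Hsf5, Hsf2 rose by 1.08 (adjusted p = 7.19e-05), and Hsf1 was not analysed here.

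No class A J-domain gene passed on the probe set used, nor with the mean of probe sets. Dnaja1, a cytosolic HSP70 partner, had a difference of -0.00 on the probe set used and -0.87 on its other probe set. Its probe sets disagree, so no direction is given for this gene. Dnajb1, its class B counterpart, was at 8.76 to 9.24 on all arrays, with a difference of 0.06 (adjusted p = 0.53). Dnajb4 was at 7.21 to 7.82 in activated and 7.45 to 8.98 in fresh cells and fell by 0.66 (SE 0.12, limma adjusted p = 0.00123). Dnajb2 fell by 0.40 (adjusted p = 0.00131), with no overlap between the states. In class C, Dnajc6, known as auxilin, which strips clathrin from vesicles, was at 5.64 to 6.08 in activated cells and 6.39 to 6.87 in fresh cells and fell by 0.72 (SE 0.07, adjusted p = 1.1e-05), and its activated values were below the array median. Dnajc4 fell by 0.36 (adjusted p = 0.000207), also with no overlap. Dnajc21, a cofactor of ribosome maturation, was at 7.80 to 9.16 in activated and 7.39 to 8.34 in fresh cells and rose by 0.60 ± 0.10 (adjusted p = 0.00086). Dnajc9, which works with histones, was at 9.30 to 10.03 in activated and 8.64 to 9.30 in fresh cells and rose by 0.54 ± 0.15 (adjusted p = 0.0196). The median difference over class B was -0.04 and over class C -0.06, and both flip to 0.02 and 0.03 after quantile normalization, so their sign depends on the scaling.

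Partner proteins moved in both directions as well. The counts of partner and marker genes that follow compare with 14.4% of all genes higher and 16.8% lower. Of 16 HSP90 co-chaperones 5 rose and 1 fell, among them Stip1, which bridges HSP70 and HSP90, by 0.63, and Cdc37l1 fell by 0.91. Of 12 HSP70 exchange factors 3 rose, among them the ER factor Hyou1 by 0.48, and Grpel2 of mitochondria fell by 0.62. Of 9 prefoldin and related genes, which hand clients to CCT, Pfdn1, Pdcl3 and Pfdn4 rose by 0.70, 0.41 and 0.33, and Pfdn5 fell by 0.50. Pfdn4 did not pass without the array that stood apart (0.30, adjusted p = 0.0928). Markers of other cells moved along with activation. Of 17 myeloid genes 1 rose and 7 fell, and the log2 of their summed intensity was at 10.46 to 11.58 on activated and 10.28 to 12.05 on fresh arrays. Of 9 B cell genes 1 rose and 5 fell, with sums of 8.68 to 10.44 on activated and 9.55 to 10.80 on fresh arrays. Of 9 conventional CD4 T cell genes 5 rose and 2 fell, with sums of 10.26 to 12.57 on activated and 10.40 to 11.68 on fresh arrays. The 9 CD8 and NK cell genes summed to 9.43 to 11.24 on activated arrays, 9.43 to 9.96 without the array that stood apart, and 9.40 to 10 on fresh arrays. Their part in the results was not tested.

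Both replicate numbers showed the direction of all 29 calls, but not the same size. Among arrays labelled replicate 1 the difference was 1.18 for Tcp1, 1.09 for Hspd1, 1.02 for Hsp90b1 and 0.96 for Hsp90aa1. Among arrays labelled replicate 2 it was 0.62 for Tcp1, 0.18 for Hspd1, 0.24 for Hsp90b1 and 0.29 for Hsp90aa1. Of the 15 members that rose, 12 had the larger difference in replicate 1. The replicates also differed within the fresh groups. Hsph1 in fresh cells was 0.83 to 1.53 higher on the replicate 2 array of each subset than on the replicate 1 array, Hspe1 was 0.76 to 1.18 higher and Hspd1 0.43 to 0.75 higher. In activated cells the same gap was -0.85 to 0.07 for Hsph1, 0.11 to 0.53 for Hspe1 and -0.54 to -0.14 for Hspd1. For Hspe1 replicate 2 was thus the higher array in all 8 groups, while for Hspd1 it was the lower one in all 4 activated groups. Replicate 2 was the higher array in all 4 activated subsets for 1 of 10 heat shock factor targets (10%), for 6 of 82 members (7.32%) and for 7.69% of all genes. In all 4 fresh subsets it was the higher array for 7 of 10 heat shock factor targets (70%), 7 of 8 CCT subunits (87.5%), 35 of 82 members (42.7%) and 16.4% of all genes. Hsph1 therefore differed by 0.80 between states in replicate 1 and by -0.76 in replicate 2, and its mean of 0.02 describes neither. Whether the replicate numbers mark the 2 experiments is not given in the sources used here.

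**Figure D3:**
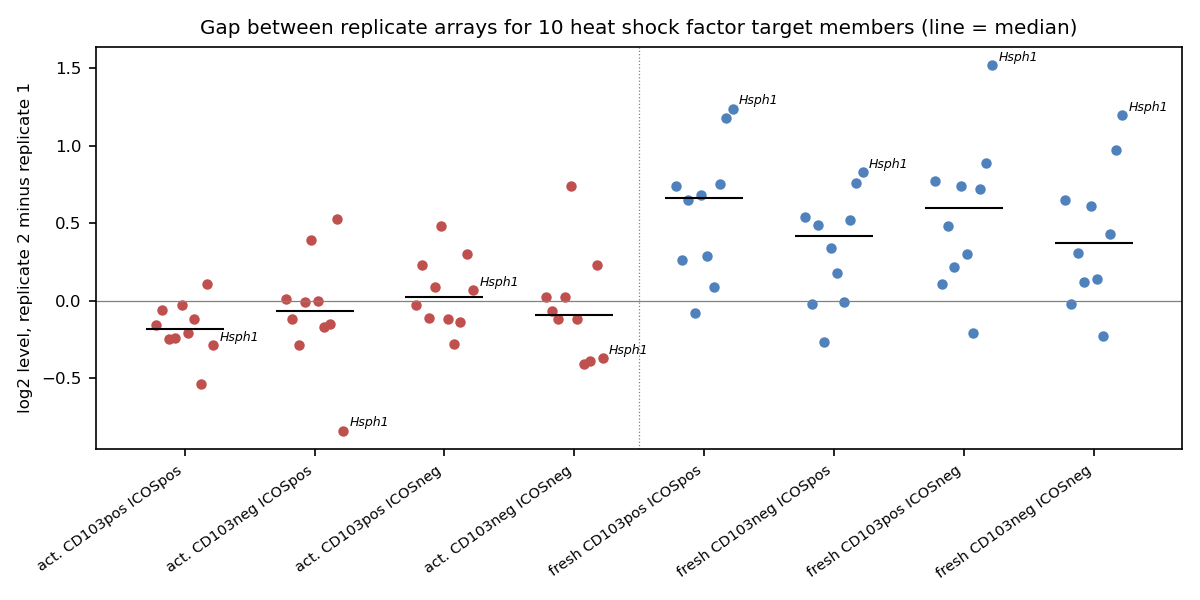
Replicate 2 minus replicate 1 (vertical axis, log2 units) for the 10 heat shock factor targets in each subset, activated subsets left of fresh subsets, 1 point per gene with the median as a bar. The medians were -0.19, -0.07, 0.02 and -0.09 in the activated and 0.67, 0.42, 0.59 and 0.37 in the fresh CD103pos ICOSpos, CD103neg ICOSpos, CD103pos ICOSneg and CD103neg ICOSneg subsets.

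The same contrast was then read within each subset, with 2 activated against 2 fresh arrays and the spread of all groups. In CD103pos ICOSneg cells 12 members rose and 7 fell, against 10.2% of all genes higher and 10% lower (20.2% in all). Dnajc21 rose by 1.47 (limma adjusted p = 0.000463), Tcp1 by 1.45 (adjusted p = 0.000606), Hspd1 by 1.39 (adjusted p = 0.00846), Cct6a by 1.25 and Hsp90aa1 by 1.16 (adjusted p = 0.0058). Hspb1 fell by 0.61 (adjusted p = 0.0153). In CD103neg ICOSneg cells 9 members rose and 8 fell, against 8.65% of all genes higher and 7.59% lower (16.2% in all). Hspa13 rose by 1.5 (adjusted p = 0.0095), Tcp1 by 1.27 (adjusted p = 0.00184), Hspd1 by 1.13 (adjusted p = 0.0307) and Hsp90aa1 by 1 (adjusted p = 0.016), and Dnajc6 fell by 1.03 (adjusted p = 0.000379). The calls of the ICOSneg subsets had 12 members in common, out of 19 in CD103pos ICOSneg and 17 in CD103neg ICOSneg cells. With dim genes left out, 19 of 64 members were called in CD103pos ICOSneg cells, against 3822 of 10673 genes. In CD103neg ICOSneg cells 16 of 64 were called, against 3097 of 10673 genes. In both subsets the share of members was then below that of the genes. In CD103neg ICOSneg cells, calls over all genes also became fewer when 1 array of the subset was left out. The count in CD103neg ICOSneg cells rests on its fresh replicate 1 array, without which 2 members passed, and on either activated array, without which 6 passed. In CD103pos ICOSneg cells leaving out either activated array or the fresh replicate 1 array left 10.

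In CD103pos ICOSpos cells 3 members rose and 6 fell, against 5.36% of all genes higher and 8.7% lower (14.1% in all). Tcp1 rose by 0.95 (limma adjusted p = 0.0125), Cct6a by 0.88 (adjusted p = 0.0144) and Hspa2 by 0.68 (adjusted p = 0.0384). Dnajb6, a class B protein that suppresses aggregation, fell by 0.77 (adjusted p = 0.0187). Without the fresh replicate 1 array 1 member passed, and without any other array of the subset 3 did. In CD103neg ICOSpos cells, whose activated replicate 2 is the array that stood apart, limma called none of the 82 members, against 2.09% of all genes, with 13 members (15.9%) at an unadjusted p below 0.05, against 13.1% of all genes, and none called with a trended, robust fit. Without that array the group keeps 1 activated array, whose spread is taken to be that of the other groups. In that fit 1.62% of all genes were called, Dnajc6 fell by 0.72 (adjusted p = 0.0325) and Dnajb13, known from the radial spokes of cilia, rose by 0.85 (adjusted p = 0.0263), and without the other activated array 3 members passed. The median difference of the 8 CCT subunits was 0.40 in CD103pos ICOSpos, -0.30 in CD103neg ICOSpos, 0.76 in CD103pos ICOSneg and 0.45 in CD103neg ICOSneg cells, and 7 of the 8 were negative in CD103neg ICOSpos cells.

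**Figure D4:**
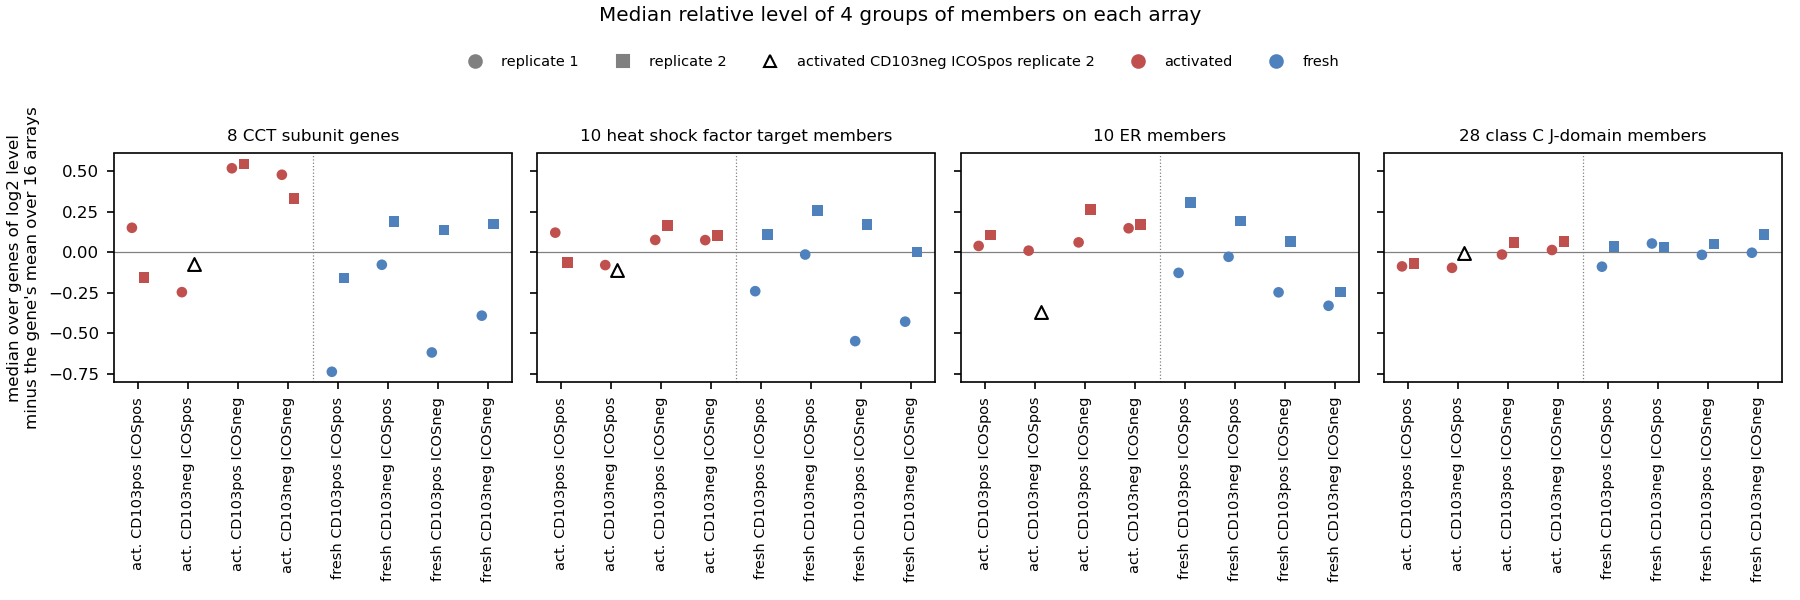
Median over genes of the log2 level minus the gene's mean over the 16 arrays (vertical axis) for the 8 CCT subunits, 10 heat shock factor targets, 10 ER members and 28 class C J-domain genes on each array, activated groups left of fresh groups, with the array that stood apart marked. The activated ICOSneg arrays are the highest for the CCT subunits, and in every fresh subset replicate 2 lies above replicate 1 for the CCT subunits, the heat shock factor targets and the ER members.

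Whether ICOS marked a difference was asked within each state. In activated cells no member was higher and 10 were lower in ICOSpos than in ICOSneg cells (12.2%). Of all genes 1.94% were higher and 5% lower (6.94% in all), and 27 members (32.9%) had an unadjusted p below 0.05, against 19.7% of all genes. Fewer of the members than of all genes were dim. With dim genes left out 11 of 64 members were lower and 1 was higher, against 1475 of 10673 genes called. The share of members was still the larger one, although the ratio of the shares was smaller. Whether the level of the members accounts for the rest was not tested. The list of 10 called among all genes held CCT subunits, mitochondrial members and J-domain genes. Hspd1 was at 10.99, 10.45, 10.36 and 10.21 on the ICOSpos arrays, below all ICOSneg values of 11.58, 11.44, 11.54 and 11.15. Its mean was 10.50 in ICOSpos and 11.43 in ICOSneg cells, a difference of -0.92 ± 0.22 (SE, n = 4 arrays each; limma adjusted p = 0.0318). Hspa9 was at 10.93, 10.68, 10.38 and 10.35 on ICOSpos arrays and at 11.43, 11.46, 11.44 and 11.24 on ICOSneg arrays, a difference of -0.81 ± 0.17 (adjusted p = 0.0213). Dnajc11, a mitochondrial protein of the cristae, differed by -0.84 ± 0.18 (adjusted p = 0.0205), and Dnaja3, the class A protein of mitochondria, by -0.47 ± 0.10 (adjusted p = 0.0208). Thus 4 of 8 mitochondrial members were lower in ICOSpos cells, with a median of -0.44 over the 8.

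The CCT subunits lay on the same side. Tcp1 was at 11.44, 11.00, 10.84 and 10.76 on activated ICOSpos arrays, below the ICOSneg values of 11.74, 11.59, 11.49 and 11.48, a difference of -0.57 ± 0.15 (limma adjusted p = 0.0465). Cct2, the beta subunit, differed by -0.42 ± 0.10 (adjusted p = 0.0357), with means of 11.64 in ICOSpos and 12.06 in ICOSneg cells, and Cct6a by -0.53 ± 0.14 (adjusted p = 0.0481). All 8 subunits had negative differences, with a median of -0.53, and -0.47 after quantile normalization. The other members called were Dnajc21 at -0.71 ± 0.15 (adjusted p = 0.0173), Hspa14, a ribosome-associated HSP70, at -0.57 ± 0.14 (adjusted p = 0.0352) and Dnajc25 at -0.36 ± 0.07 (adjusted p = 0.0153). The groups did not overlap for 8 of the 10, the exceptions being Dnajc21 and Cct6a. The 10 were picked by a test on the same arrays, so the lack of overlap adds no support to it. Hsph1 had a difference of -0.90 with an SE of 0.40 and did not pass (adjusted p = 0.247), and Cct8 of -0.76 (adjusted p = 0.0576), Hsp90aa1 of -0.57 (adjusted p = 0.0753) and Hspa5 of -0.37 did not pass either.

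These calls are sensitive to scaling and to single arrays. After quantile normalization 7 members were lower and none was higher, against 1269 of all 19938 genes called. Tcp1, Cct6a and Hspa14 no longer passed there, which left 1 CCT subunit called. Calls over all genes also became fewer in most fits that left out 1 activated array. Without the array that stood apart 7 members were lower and 1 was higher, against 6.65% of all genes called, 6 of them shared with the 10. The members lost had differences of -0.89 for Hspd1 (adjusted p = 0.0691), -0.54 for Tcp1 (adjusted p = 0.0971), -0.40 for Cct6a (adjusted p = 0.125) and -0.59 for Hspa14 (adjusted p = 0.0569) in that fit, which has 1 array fewer. The median over the 8 CCT subunits was -0.54 in it. Dnajb13 was higher in ICOSpos cells by 1.29 without that array (adjusted p = 0.000112), and did not pass on all arrays (adjusted p = 0.0745). Its values were 8.80, 8.99, 8.96 and, on the array that stood apart, 7.31 in activated ICOSpos cells and 7.73, 7.79, 7.42 and 7.59 in activated ICOSneg cells. No member passed without activated CD103pos ICOSneg replicate 1, and 1 passed without CD103neg ICOSneg replicate 1 or without CD103pos ICOSpos replicate 2. With CD103neg ICOSpos replicate 1 or CD103pos ICOSneg replicate 2 left out, 5 passed. The steadiest calls were Dnajc21 and Dnajc25, which held in 14 of 16 such fits, and the least steady Cct6a, which held in 3.

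Some of the genes that work with these members were also lower in activated ICOSpos than ICOSneg cells. Among HSP90 co-chaperones 4 of 16 were lower, Ppid by 0.84, Fkbp4 by 0.79, Ppp5c by 0.65 and Trap1 by 0.60 on the log2 scale, and among HSP70 exchange factors 5 of 12, with Bag5 lower by 0.60 and Hyou1 by 0.58, against 5% of all genes lower. Without the array that stood apart 1 of the 16 and 3 of the 12 were lower, and Ppid, Fkbp4 and Trap1 no longer passed, at differences of -0.76, -0.73 and -0.63. Lonp1 had a difference of -1.09 (limma adjusted p = 0.00238) and Tomm70a, an import receptor, of -0.65. Of 9 conventional CD4 T cell genes 3 were higher in activated ICOSpos cells, against 1.94% of all genes higher. They were the cytokine genes Il17a by 3.72 and Csf2 by 1.5, and Cd40lg by 0.77. Without the array that stood apart these differences were 4.81, 1.98 and 0.75. Their part in the chaperone differences was not tested.

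In fresh cells ICOS marked few members, and of the 8 CCT subunits 4 had positive and 4 negative differences. In ICOSpos against ICOSneg cells 1 member was higher and 2 were lower, against 4.1% of all genes higher and 2.43% lower (6.53% in all), with 14 members (17.1%) at an unadjusted p below 0.05, against 18.5% of all genes. Dnajc1, an ER-membrane J-domain protein, was at 9.40, 9.71, 9.18 and 9.42 on fresh ICOSpos arrays and at 8.91, 9.12, 8.75 and 8.82 on fresh ICOSneg arrays, a difference of 0.53 ± 0.12 without overlap (limma adjusted p = 0.0218). Dnajb4 was at 7.89, 8.32, 7.45 and 7.68 on fresh ICOSpos arrays and at 8.15, 8.98, 8.42 and 8.68 on fresh ICOSneg arrays, a difference of -0.72 ± 0.17 (adjusted p = 0.0272). Dnajc28 differed by -0.40 ± 0.10 (limma adjusted p = 0.0399). Calls over all genes became fewer when any 1 fresh array was left out. Without fresh CD103neg ICOSneg replicate 2 or fresh CD103neg ICOSpos replicate 2 no member passed. Without the array that stood apart Dnajb13 also passed, at 0.43 (adjusted p = 0.0145), against 7.81% of all genes called. Of 14 naive T cell genes 9 were lower in fresh ICOSpos cells, with sums of 13.90 to 14.27 on ICOSpos and 14.72 to 15.19 on ICOSneg arrays. Their part in these differences was not tested.

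**Figure D5:**
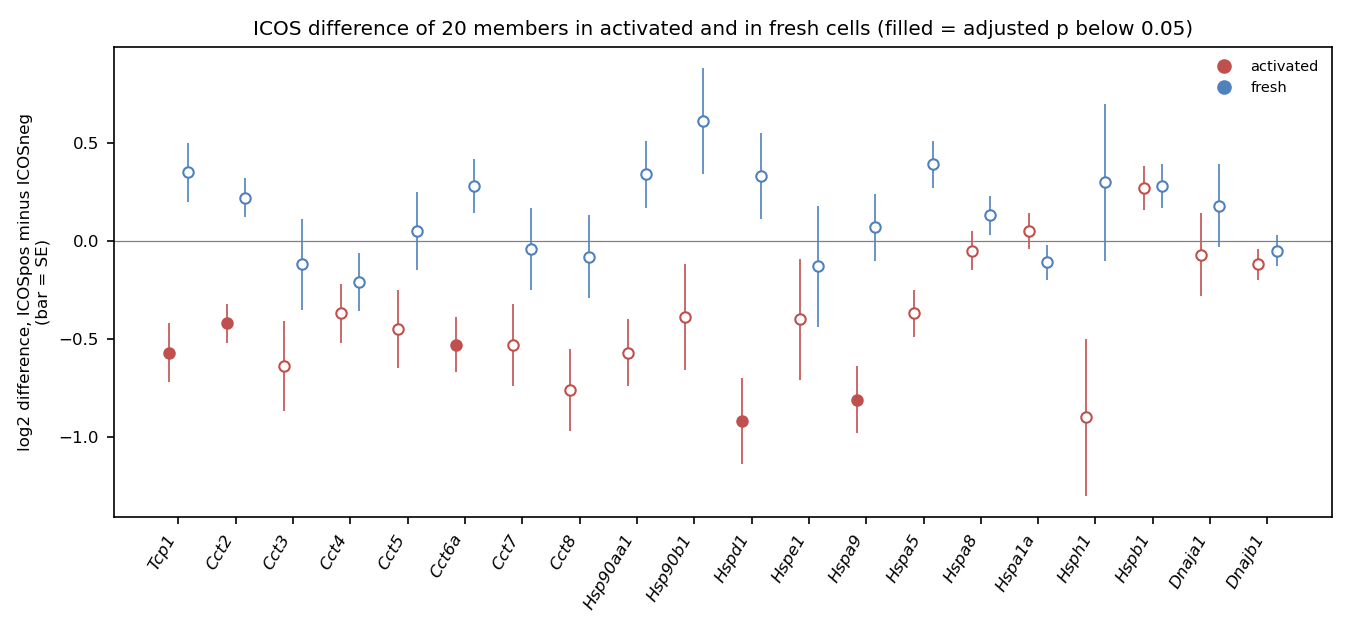
ICOSpos minus ICOSneg difference (vertical axis, log2 units, bar = SE) of 20 members along the horizontal axis, in activated cells and in fresh cells, filled where the limma adjusted p was below 0.05. In activated cells Hspd1 lies at -0.92, Hspa9 at -0.81 and Tcp1 at -0.57, and in fresh cells none of the 20 is filled.

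Whether the ICOS difference itself depended on the state was tested as the difference in activated cells minus that in fresh cells. Of the 82 members 8 passed, all negative, against 2.06% of all genes positive and 4.65% negative (6.72% in all), with 21 members (25.6%) at an unadjusted p below 0.05, against 20.7% of all genes. The values were -1.25 ± 0.31 for Hspd1 (limma adjusted p = 0.0367), -0.92 ± 0.21 for Tcp1 (adjusted p = 0.0261), -0.91 ± 0.24 for Hsp90aa1 (adjusted p = 0.0487) and -0.81 ± 0.20 for Cct6a (adjusted p = 0.0353). They were -0.81 ± 0.21 for Dnajc21 (adjusted p = 0.0404), -0.75 ± 0.18 for Hspa5 (adjusted p = 0.0274), -0.69 ± 0.17 for Dnajc1 (adjusted p = 0.0332) and -0.64 ± 0.15 for Cct2 (adjusted p = 0.0252). For Hspa5 the arrays behind this value were 11.88, 11.71, 11.44 and 11.09 in activated ICOSpos and 11.91, 12.02, 11.80 and 11.84 in activated ICOSneg cells, and 11.50, 11.99, 11.67 and 11.89 in fresh ICOSpos and 11.32, 11.60, 11.21 and 11.38 in fresh ICOSneg cells. Hspa5 thus lay mostly lower in ICOSpos cells after activation and mostly higher in fresh ones, although neither difference passed alone. The lowest activated value, 11.09, was on the array that stood apart. Without the array that stood apart 5.92% of all genes passed. Cct2 was kept (-0.68, adjusted p = 0.0328) and the other 7 had adjusted p between 0.0515 and 0.0975 in that fit with 1 array fewer, at -1.22 for Hspd1, -0.90 for Tcp1, -0.84 for Hsp90aa1, -0.76 for Dnajc21, -0.68 for Cct6a, -0.67 for Hspa5 and -0.59 for Dnajc1, while Dnajb13 passed at 0.86 (adjusted p = 0.00493). No member passed without activated CD103pos ICOSpos replicate 2, fresh CD103neg ICOSneg replicate 1, fresh CD103neg ICOSpos replicate 2 or fresh CD103pos ICOSpos replicate 2. Calls over all genes were also fewer in those fits. With all arrays kept and dim genes left out, 9 of 64 members passed, all negative, against 1316 of 10673 genes. These shares lay closer together than those with dim genes kept. On all arrays Hspd1 did not pass with the mean of its probe sets, nor Hsp90aa1 after quantile normalization. Dnajc1 did not pass after quantile normalization or in a trended, robust fit. All 8 CCT subunits had negative values, with a median of -0.58, and -0.65 without the array that stood apart. Partner genes with large negative values were Sdf2l1 (-1.80), Atf6 (-1.28), the co-chaperone Fkbp5 (-1.21), Lonp1 (-1) and Hyou1 (-0.97). These were named for their size, and not all partners went this way. Pfdn5 was at 9.25 to 9.79 on activated ICOSpos and at 8.99 to 9.47 on activated ICOSneg arrays. On fresh arrays Pfdn5 was at 9.55 to 9.87 in ICOSpos and at 9.87 to 10.17 in ICOSneg cells. Shares of partner genes called are not given here.

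CD103 marked no member by limma in either state. Between CD103pos and CD103neg cells none of the 82 passed in activated cells, against 0.717% of all genes, nor without the array that stood apart. At an unadjusted p below 0.05 limma gave 8 members (9.76%) there, against 12.1% of all genes. In fresh cells none passed, against 0.206% of all genes, and 9 members (11%) had an unadjusted p below 0.05, against 7.49% of all genes. A trended, robust fit called 1 member in fresh cells. The nearest was Hspb1 in fresh cells. Hspb1 was at 6.85, 6.94, 6.71 and 6.50 on fresh CD103pos arrays and at 6.27, 6.26, 6.10 and 5.87 on fresh CD103neg arrays. These values did not overlap, although Hspb1 is dim, and the difference of 0.63 ± 0.11 had an adjusted p of 0.0599, or 0.0325 without the array that stood apart. The 8 CCT subunits and the 8 mitochondrial members all had negative differences in fresh cells, with medians of -0.30 and -0.27, and none passed. The change of the CD103 difference with the state was called for no member, against 0.296% of all genes, with 11 (13.4%) at an unadjusted p below 0.05, against 10.6% of all genes. The change of the CD103 difference with ICOS was called for none in activated cells, against 0.015% of all genes, with 3 members (3.66%) at an unadjusted p below 0.05, against 2.6% of all genes. It was called for none in fresh cells, against 0.0451% of all genes, with 2 members (2.44%) at an unadjusted p below 0.05, against 4.96% of all genes. Neither change was called for a member without the array that stood apart.

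On the array that stood apart, 23 members were below and 7 above all 7 other activated arrays (36.6%), against 29.6% of all genes. By direction, 3118 of all 19938 genes were below and 2793 above. Of the 10 ER members 7 were below, of the 8 CCT subunits 3, and of the 10 heat shock factor targets 4 were below and 1 above. Dnajb13 was at 7.31 on it, against 8.96 on its partner, Hsph1 at 7.76, against 8.60, and Hspa13 at 7.94, against 8.53. Dnajc15 was higher, at 10.68 against 9.86, and so was Hspa4l, an HSP110-like gene, at 9.26 against 8.87. The median over the members of this array minus its partner was 0.00.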

How the data were processed

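The values are log2 intensities, 1 for each of 35556 probe sets on each of 16 arrays, as deposited by the authors. RMA and affy are named per the submitters' processing notes, with versions, settings and build not stated there. RMA corrects background and brings the arrays to a common distribution, so a shift shared by all genes cannot be seen. The number of arrays, and not a read depth, limits the precision. The platform annotation gave 1 symbol for 21789 probe sets, several for 1621 and none for 12146, and only the first were used. The brightest probe set stood for each of 999 genes with several, which left 19938 genes. Whether the brightest probe set lies at the gene's own place in the genome was not checked. All 82 member symbols matched RefSeq.

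Groups came from the labels. In limma 3.58.1 (R 4.3.3) 8 group means were fitted to the 16 arrays, leaving 8 residual degrees of freedom (2.9 prior), and 13 contrasts were tested, two-sided, with adjustment by Benjamini-Hochberg over all genes. The code was tested on simulated data. Tables and figures were made with Python 3.11.15, pandas 2.3.3, numpy 2.4.6 and matplotlib 3.10.9. A gene was called dim at a mean below 6.4, the median of all values. Alternatives were leaving out each array, the mean of probe sets, only genes that are not dim, a trended and robust fit, the replicate number as a block and quantile normalization.

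The members and lists were chosen with earlier results of these data known. Genes named were Tcp1 and the Cct genes, the main HSP90, HSP70, mitochondrial chaperonin, Hsph1, Hspb1, Dnaja1 and Dnajb1 genes, up to 10 passing members a direction in each comparison with the largest difference and the same sign in both replicates, and up to 4 passing genes of each other list. Dnajb13, Dnajc27, Hspa2, Hspa4, Hspa4l and Hspa12a were named in comparisons where that rule does not take them, after their values were seen. Contrasts within a subset share arrays with the contrast over subsets. Hsp90ab1 and Hspa1b were not analysed here.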

Additional observations from a re-analysis of the deposited data

Results flagged for a closer look

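For 8 members the ICOSpos minus ICOSneg difference itself differed between activated and fresh cells by limma's test of that difference. The activated difference minus the fresh one was -1.25 for Hspd1 (limma adjusted p = 0.0367), -0.92 for Tcp1 (adjusted p = 0.0261), -0.91 for Hsp90aa1 (adjusted p = 0.0487) and -0.81 for Cct6a (adjusted p = 0.0353). It was -0.81 for Dnajc21 (adjusted p = 0.0404), -0.75 for Hspa5 (adjusted p = 0.0274), -0.69 for Dnajc1 (adjusted p = 0.0332) and -0.64 for Cct2 (adjusted p = 0.0252). Without activated CD103neg ICOSpos replicate 2, the array low in Foxp3, only Cct2 of these 8 passed (-0.68), and the other 7 differences were -1.22 to -0.59 with adjusted p between 0.0515 and 0.0975. On all arrays Hspd1 did not pass with the mean of its 2 probe sets, nor Hsp90aa1 after quantile normalization. Dnajc1 did not pass after quantile normalization or in a trended, robust fit. Groups held 2 arrays each, so no group was large enough for a test of outlying samples.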

How the results depend on the processing

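Over 84 named values that passed, 1754 values under alternatives gave 1379 on the same side of the threshold, 375 no longer past it and none of the other sign. Of 225 values of the always-named genes that did not pass, 17 passed under some alternative and none changed sign past the threshold. Counts of members called, with the range over fits that left out 1 array, were 29 (25 to 33) for activated against fresh, 9 (1 to 11) in CD103pos ICOSpos, 0 (0 to 3) in CD103neg ICOSpos, 19 (10 to 20) in CD103pos ICOSneg and 17 (2 to 17) in CD103neg ICOSneg cells. For ICOS they were 10 (0 to 10) in activated cells, 3 (0 to 5) in fresh cells and 8 (0 to 9) for the difference between states. For CD103 they were 0 (0 to 3) in activated cells, 0 (0 to 1) in fresh cells, 0 (0 to 1) for the difference between states, and 0 (0 to 1) for its change with ICOS in activated cells and 0 in fresh cells under every fit. The mean of probe sets, quantile normalization and the trended, robust fit each called 1 member for CD103 in fresh cells, against 45, 55 and 45 of all genes. The ranges over left-out arrays are not set beside all genes here, so they describe steadiness only. The replicate numbers are not tied to an experiment by the labels. Deviations from the group means correlated at -0.016 to 0.752 over 28 pairs of groups, over 0.1 in 27 and at 0.499 to 0.752 in the 6 pairs of fresh groups. Whether the numbers mark a shared source was not tested. Since 1 pair was not over 0.1 and no label gives a pairing, the block stayed an alternative. With the replicate block the counts were 36 for activated against fresh, 18 in CD103pos ICOSpos, 3 in CD103neg ICOSpos, 28 in CD103pos ICOSneg and 27 in CD103neg ICOSneg cells. With the same block they were 18 for ICOS in activated and 7 in fresh cells, 15 for the difference of ICOS between states, and 1 each for CD103 in activated cells, in fresh cells and between states. Calls over all genes rose with the block too, from 6214 to 7515 for activated against fresh and from 1383 to 2734 for ICOS in activated cells. They rose from 1301 to 2275 for ICOS in fresh cells and from 1339 to 2638 for its difference between states. For CD103 they rose from 143 to 519 in activated cells, from 41 to 143 in fresh cells and from 59 to 370 between states. In CD103neg ICOSneg cells they rose from 3238 to 4713. For the other subsets the rise over all genes is not given here, so their counts do not set members apart. All 84 named values stayed past the threshold with the block. The family level, the activated minus fresh difference of the median over a family's genes on each array, turned positive after quantile normalization, at 0.018 for class B and 0.018 for class C J-domain genes. The cause was not tested. With 2 arrays a group, small differences are often not detectable, and dim probe sets understate them.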
